A study of Mus musculus with 12 samples.

Results

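The genes described here are those of subcutaneous white adipose tissue (scWAT) that were tested for a response to cold that differs between Jmjd1a +/+ (WT) and Jmjd1a HY/HY (HY) mice. The comparison was the cold response of HY minus the cold response of WT, (HY at 8°C minus HY at 30°C) minus (WT at 8°C minus WT at 30°C), on the log2 scale, and it used the RNA-seq counts of all 12 libraries of the series. Of 55401 annotated genes, 16540 passed the filter on low counts and all of them were tested. This quantity is called the difference. A negative difference means that the response was lower, or more negative, in HY, and a positive difference that it was higher, or less negative.

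The mice were females of a mutant line made in C57BL/6J eggs, 16 weeks old at the start and caged singly. The 4 groups of 3 libraries were WT at 30°C (thermoneutral, TN), HY at 30°C, WT at 8°C (cold exposure, CE) and HY at 8°C, each temperature lasting 1 week after 1 week of acclimation at 30°C that all groups shared. HY carries H1122Y, a change of a histidine in the catalytic Jumonji domain made by CRISPR-Cas9, on both alleles of Jmjd1a (gene symbol Kdm3a). It is a germline change, so tissues other than fat also carried it. The HY animals came from line 1 of the mutant mice.

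JMJD1A removes methyl groups from lysine 9 of histone H3, a mark of silent chromatin. In cold, noradrenaline released by sympathetic nerves acts on the fat pad through beta-adrenergic receptors and cAMP, and some adipocytes acquire the beige state: they gain mitochondria, express the proton carrier UCP1 and burn fatty acids and glucose to make heat. Most mitochondrial proteins are encoded in the nucleus, and the PGC-1 coactivators raise their transcription together with nuclear factors such as ERR alpha, NRF1 and the ETS factor GABPA.

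Between 13592629 and 26352081 read pairs per library were counted on genes, and the 30°C libraries were deeper (18305586 to 26352081) than the 8°C libraries (13592629 to 17955584). Levels are given as CPM (counts relative to the scaled library total) after scaling by the trimmed mean of M values (TMM). The adipocyte markers Adipoq (1210 to 3790 CPM), Plin1 (811 to 1880 CPM) and Fabp4 (8200 to 26600 CPM) were abundant in every library. Kdm3a was at 35.7 to 61.7 CPM in all 12 libraries, with a difference of 0.28 ± 0.23 (SE, adjusted p = 0.605). The mutation changes 1 amino acid, so the level of Kdm3a does not check the genotype labels. Libraries that stood apart were WT TN replicate 2, in which a list of 15 skeletal muscle genes averaged 6.69 log2 CPM against 0.33 to 1.86 in the other 11, and HY TN replicate 3, in which the mitochondrial DNA list averaged 9.31 log2 CPM against 7.36 to 8.96 elsewhere and the mammary epithelium list 4.32 against 5.16 to 6.97. In HY TN replicate 2 the lipogenesis list averaged 8.06 log2 CPM, against 7.05 and 7.29 in the other 30°C HY libraries. The library quality weights of limma-voom, an alternative fit, were lowest for HY TN replicate 3 (0.352) and WT TN replicate 3 (0.368), against 0.633 to 2.43 elsewhere. In bulk tissue, fewer cells of a type and less RNA per cell cannot be told apart.

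The cold response differed between the genotypes in 370 genes (edgeR quasi-likelihood test, Benjamini-Hochberg adjusted p under 0.05), and 342 of these had a negative and 28 a positive difference, 2.07% and 0.169% of the genes tested. Over all genes the median difference was 0.043 and 45.6% of the differences were negative. The 342 genes had a median difference of -1.30. In 335 of them every group had more than 3 counts in some library, and there the difference ranged from -4.97 to -0.55. The 342 genes had a median cold response of 1.55 in WT and 0.24 in HY on the log2 scale. The WT response was positive in all 342 of them and passed its own test at 1.5-fold or more in 327, whereas in HY it was positive in 243 and negative in 99, and passed the test upwards in 5 genes (Letm1, Cox7a1, Acsf2, Pank1 and Gk) and downwards in 3 (Cryab, Ndufa4l2 and Tbx2). In the 28 genes with a positive difference the WT response was negative in all 28 and passed the test in 19 of them, and the HY response, with a median of 0.16, passed in 0 in either direction. In size, the HY response was the smaller of the pair in 333 of the 342 genes and in 23 of the 28 of the other set. These counts share the 12 libraries with the difference itself and are a description of it.

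**Figure D1:**
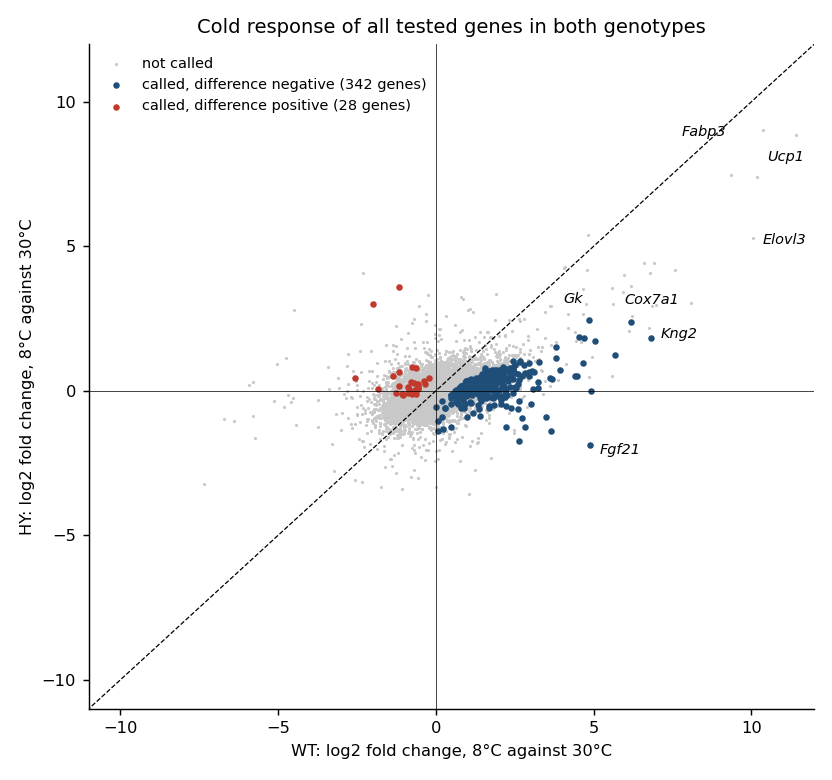
Fitted cold response (log2 fold change, 8°C against 30°C) of 16540 genes in WT (horizontal axis) and HY (vertical axis). The dashed line marks equal responses. The 342 genes called with a negative difference (blue) lie below the line on the right, and the 28 called with a positive difference (red) lie above it on the left. Ucp1, Fabp3 and Elovl3 had the largest WT responses labelled and were not called.

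On their own, the cold responses passed the test and a 1.5-fold limit in 1707 genes upwards (10.3%) and 1132 downwards (6.84%) in WT, and in 30 upwards (0.181%) and 11 downwards (0.0665%) in HY. The HY counts moved with single libraries. Without HY TN replicate 3, 461 genes were called upwards and 201 downwards in HY, and without any other library 7 to 47 were called upwards and 0 to 17 downwards. For the interaction, 256 negative and 40 positive differences were called without that library, of which 231 and 15 were also called with all libraries. The WT counts depend on the scaling, since with library totals in place of TMM they were 1057 upwards and 4092 downwards. With library totals, the median difference over all genes was shifted by 0.21, and 186 negative and 43 positive differences were called, so that 81.2% of the called genes were negative against 92.4% with TMM. All 342 and all 28 genes kept their sign with library totals.

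Read the other way, the difference compares the genotypes at each temperature. At 8°C, HY was lower than WT in 718 genes (4.34%) and higher in 249 (1.51%), and at 30°C lower in 72 (0.435%) and higher in 93 (0.562%). Among the 342 genes with a negative difference, HY was below WT at 8°C in 337, with a median of -0.97, and above WT at 30°C in 314, with a median of 0.27. The genotype difference was the larger at 8°C in 287 genes and at 30°C in 55. At 8°C 267 of the 342 passed the test between genotypes, at 30°C 28 did, and 51 passed at neither temperature. Among the 28 genes with a positive difference, HY was below WT at 30°C in 26 and above WT at 8°C in 25, and the genotype difference was the larger at 8°C in 15 and at 30°C in 13. In 13 of the 28 the genotypes differed at neither temperature by these tests.

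**Figure D2:**
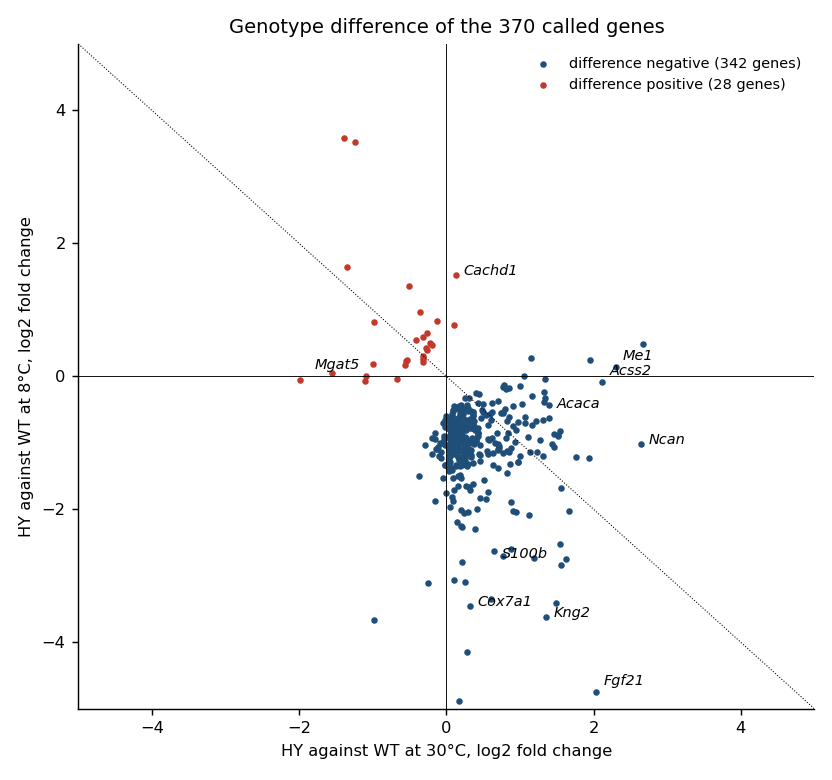
Genotype difference (HY against WT, log2 fold change) at 30°C (horizontal axis) and at 8°C (vertical axis) for the 370 called genes, blue for a negative and red for a positive difference. On the dotted line the sizes at both temperatures are equal and opposite. Most blue points lie close to the vertical axis and below 0, and Me1 and Acss2 lie far to the right near 0 at 8°C.

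Many of the negative differences were those of subunits of oxidative phosphorylation. This pathway passes electrons from NADH and succinate through complexes I to IV to oxygen, and uses the proton gradient that results to make ATP in complex V, the ATP synthase. Of 84 nuclear-encoded subunits tested, 82 had a negative difference and 49 were called negative, where 2.07% of all genes tested were. These 49 made up 14.3% of all genes called negative, and 0 subunits were called positive. In complex I, which oxidises NADH, 23 of 37 subunits were called, with a median difference of -1.15. In complex II 2 of 4 were called (median -1.15), in complex III with cytochrome c 8 of 10 (median -1.30), in complex IV 5 of 15 (median -1.14) and in the ATP synthase 11 of 18 (median -1.03). The median WT response lay between 1.38 (ATP synthase) and 1.93 (complex III) and the median HY response between 0.31 and 0.58. In WT 35 of the 37 genes of the complex I list were called upwards in cold (all genes, 10.3%). In HY 0 were, where only 0.181% of all genes were called upwards. The mean level of the list in HY was still 7.05 to 7.14 log2 CPM at 8°C against 6.61 to 7.03 at 30°C. The complex I list was built by gene symbol and also holds Ndufa4, now counted as a complex IV subunit (not called), and its relative Ndufa4l2 (called).

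Ndufs8, an iron-sulfur subunit of complex I (chromosome 19, 3908863 to 3912774, RefSeq GRCm38.p6), was at 69.7, 76 and 96 CPM in WT at 30°C and at 320, 312 and 328 CPM in WT at 8°C. In HY it was at 77.9, 99.7 and 102 CPM at 30°C and at 125, 139 and 117 CPM at 8°C. Every cold library was above every 30°C library of its genotype, the WT cold libraries stood far above all others, and the difference was -1.54 ± 0.20 (SE, adjusted p = 0.00787). Cyc1, the cytochrome c1 of complex III (chromosome 15, 76343513 to 76346260), went from 165, 180 and 233 CPM to 858, 907 and 832 CPM in WT. In HY Cyc1 was at 184, 290 and 319 CPM at 30°C and at 365, 377 and 336 CPM at 8°C, and its difference was -1.73 ± 0.28 (adjusted p = 0.0132). The HY groups of Cyc1 did not overlap but were close. Cox5a, a subunit of complex IV, was at 158, 176 and 192 CPM in WT at 30°C and at 651, 913 and 776 CPM at 8°C. In HY the Cox5a groups overlapped, with 169, 235 and 270 CPM at 30°C and 238, 310 and 215 CPM at 8°C, and the difference was -1.97 ± 0.29 (adjusted p = 0.0113). Sdhb, the iron-sulfur subunit of complex II, averaged 194 ± 44.9 CPM (SD, n = 3) and 723 ± 6.85 CPM in WT, and 223 ± 46.1 and 308 ± 13.2 CPM in HY, with a difference of -1.43 ± 0.25 (adjusted p = 0.017). Cycs, the electron carrier cytochrome c, had a difference of -1.72 (adjusted p = 0.0113), and Atp5d, the delta subunit of the ATP synthase, of -1.25 (adjusted p = 0.0113).

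**Figure D3:**
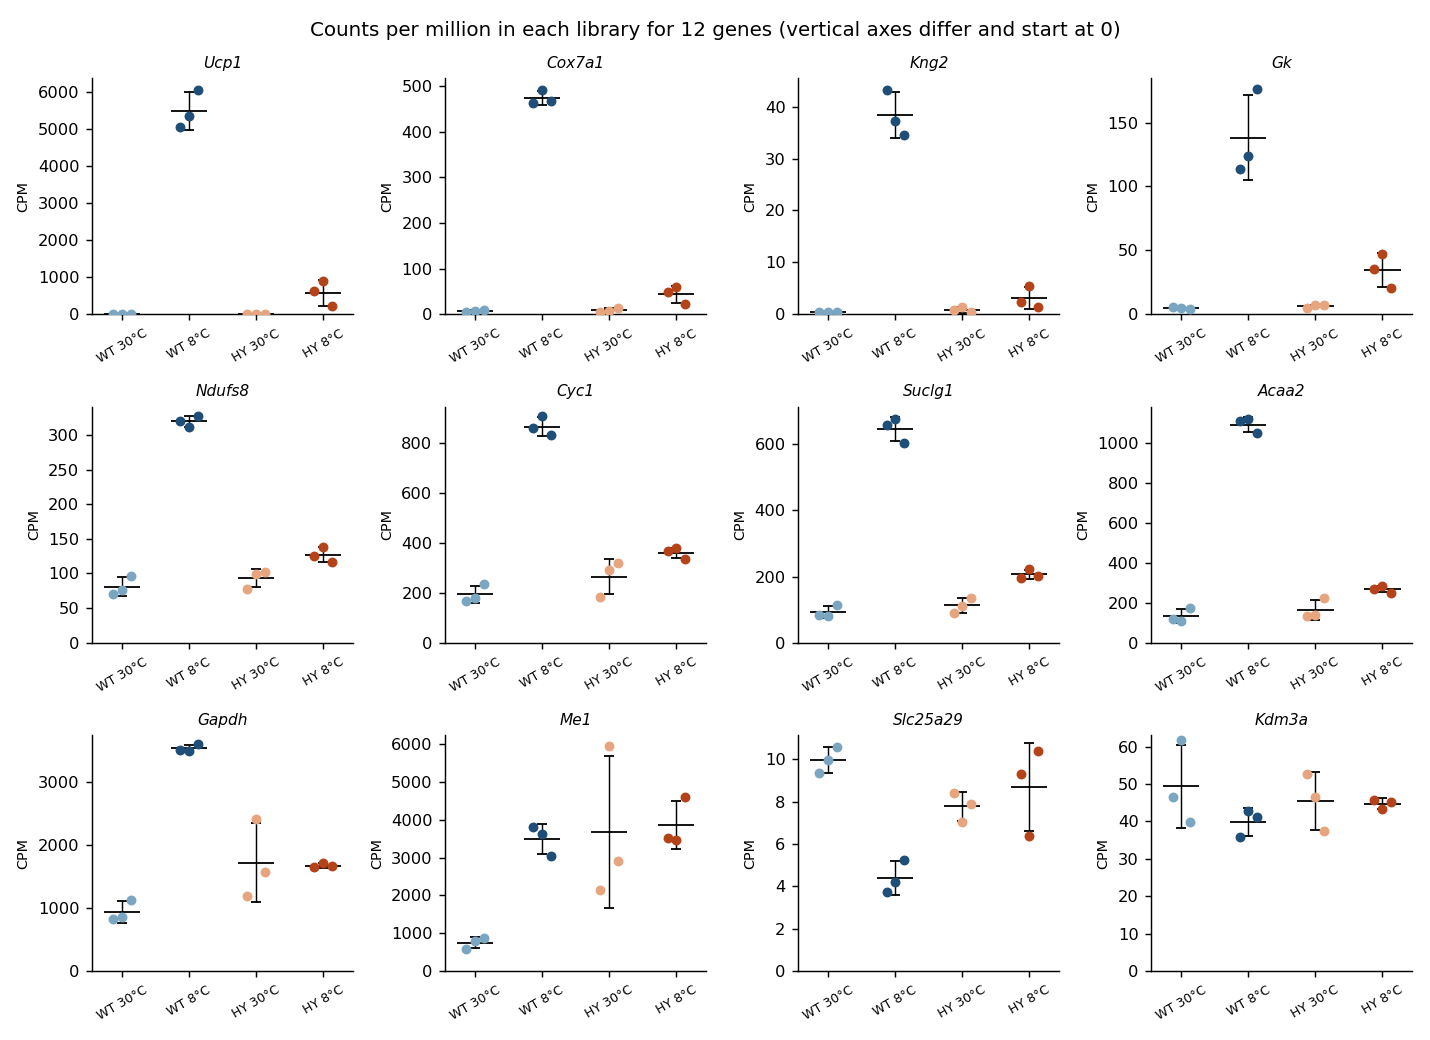
CPM of 12 genes in the 3 libraries of each group, with the group mean and SD as lines. For Ndufs8, Cyc1, Suclg1 and Acaa2 the WT 8°C libraries stand above all others and the HY 8°C libraries lie closer to the 30°C libraries. Me1 is high in HY TN replicate 2 (5970 CPM), Slc25a29 is low in WT at 8°C only (3.72 to 5.26 CPM), and Kdm3a lies between 35.7 and 61.7 CPM in every library.

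The same direction extended to the machinery that builds the respiratory chain. The shares called negative were 8.57 to 30.4% in the lists of this paragraph, against 2.07% over all genes. Assembly factors had 7 of 46 genes called negative (median difference -0.54), for example Cox19 (-0.90, adjusted p = 0.0263) and Coa3 (-0.99, adjusted p = 0.0271), both of complex IV assembly. Mitochondrial ribosomal proteins had 18 of 75 called and 74 of 75 negative (median -0.56), with Mrpl42 at -1.37 (adjusted p = 0.0135) and Mrps24 at -1.36 (adjusted p = 0.0135). Import, chaperone, protease and cristae genes had 14 of 46 called and all 46 negative (median -0.76), among them Apoo, a component of the MICOS complex that shapes cristae (-1.65, adjusted p = 0.00984). Coenzyme Q synthesis had 3 of 13 called (median -0.62) and iron-sulfur and heme synthesis 3 of 26 (median -0.38), with Bola3 at -1.44 (adjusted p = 0.0113). Genes of mitochondrial DNA maintenance, transcription and translation had 3 of 35 called, among them Gfm1, an elongation factor of mitochondrial translation (-1.03, adjusted p = 0.0297), and a median of -0.30. With library totals in place of TMM the medians were -0.94 for complex I, -0.34 for the mitochondrial ribosomal proteins and -0.08 for the maintenance genes, against 0.25 over all genes.

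Transcripts of the mitochondrial genome itself varied widely among the HY libraries at 30°C. Of 12 protein-coding genes tested, 10 had a negative difference and 0 were called by edgeR, 1 by DESeq2 and 0 by limma-voom. At an unadjusted p under 0.05 there were 4 of the 12, and 15.0% of all genes tested. The lowest p was that of mt-Nd1, a complex I subunit, which was at 10900, 9350 and 9930 CPM in WT at 30°C and at 23500, 27800 and 27900 CPM at 8°C. In HY mt-Nd1 was at 7580, 10700 and 18900 CPM at 30°C, where the highest value is that of replicate 3, and at 14400, 13300 and 15700 CPM at 8°C. Its difference was -1.17 ± 0.44 (adjusted p = 0.229). The median difference over the list was -0.73, and -0.18 without HY TN replicate 3.

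**Figure D4:**
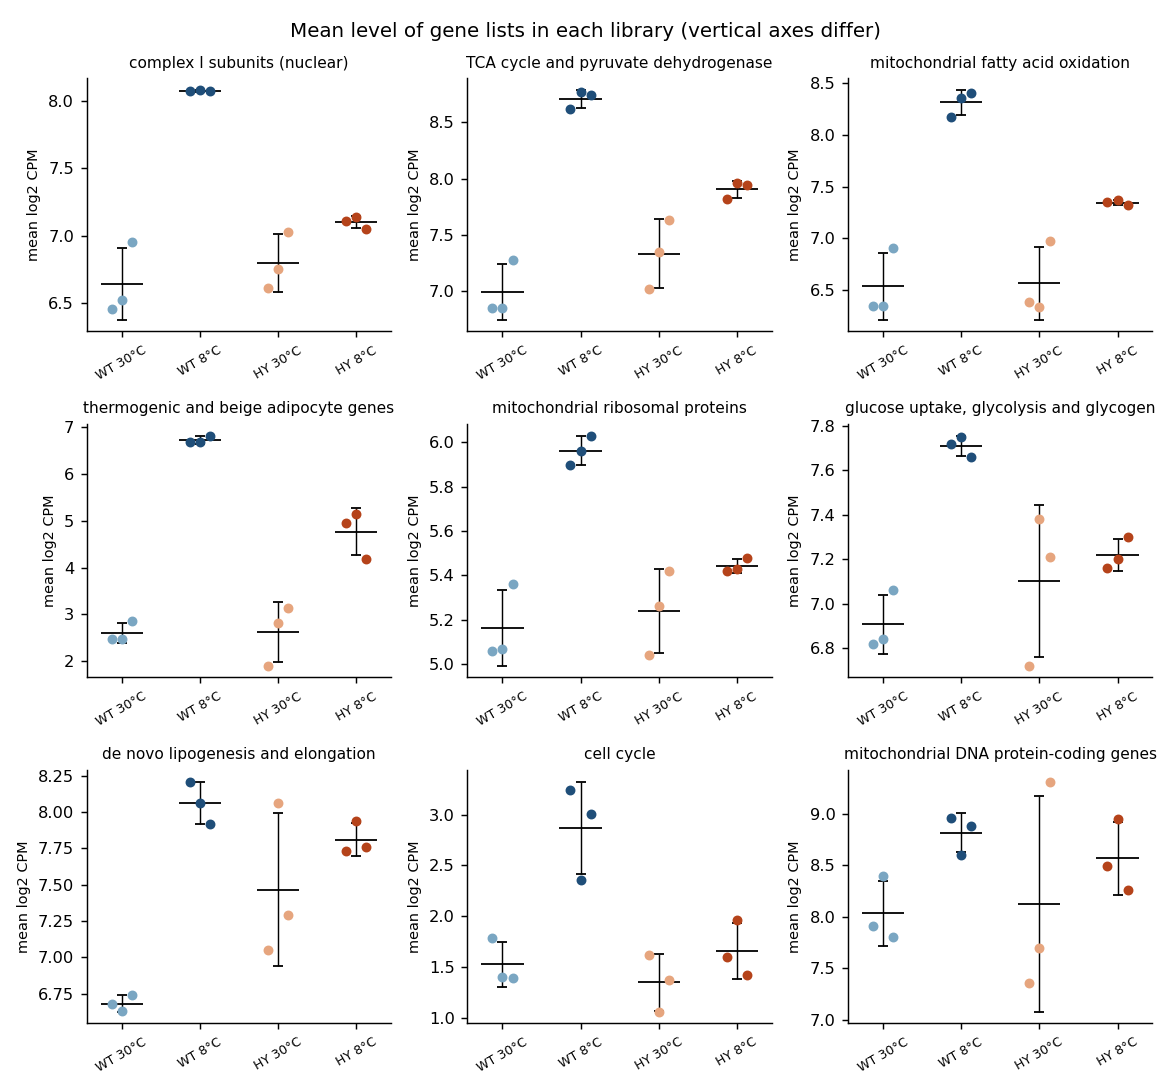
Mean log2 CPM of 9 gene lists in each of the 12 libraries, with group mean and SD. For complex I the WT 8°C libraries lie at 8.07 to 8.08 and the HY 8°C libraries at 7.05 to 7.14. The mitochondrial DNA list spans 7.36 to 9.31 in HY at 30°C, and the lipogenesis list is highest there in replicate 2 (8.06).

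Promoters of the genes called negative were searched for the letters of 4 motifs bound by regulators of mitochondrial genes. RefSeq windows of 250 bases before to 50 bases after the transcription start (GRCm38.p6) were at hand for 255 of the genes called negative, 19 of those called positive and 11138 of all tested, and both strands were searched. TNAAGGTCA, the extended binding site of the estrogen-related receptors, was in 2.35% of the genes called negative (6 genes), 0% of those called positive and 0.934% of all. CCGGAAGT, an ETS site of the kind GABPA binds, was in 7.45%, 0% and 8.41%. GCATGCGC, the core of NRF1 sites, was in 5.49%, 10.5% and 5.50%, and TGACGTCA, the cAMP response element, in 3.53%, 5.26% and 3.37%. Among the genes of the mitochondrial and fuel lists the NRF1 core was in 11 of 104 of those called negative and in 39 of 390 of all tested. Stretches of 60 bases upstream of the start are shown for 5 of the genes called negative that hold the receptor or ETS letters, to let the letters be seen in place. They run 5′ to 3′ on the strand of the gene, with the match in capitals.
Timm8b (import chaperone of the intermembrane space, chr9:50603780-50603839, plus strand): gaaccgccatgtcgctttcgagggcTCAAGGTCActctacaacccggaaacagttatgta
Ndufb4 (complex I, chr16:37654391-37654450, minus strand): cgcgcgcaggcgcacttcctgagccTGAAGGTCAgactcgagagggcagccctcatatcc
Mrpl51 (large mitochondrial ribosomal subunit, chr6:125192085-125192144, plus strand): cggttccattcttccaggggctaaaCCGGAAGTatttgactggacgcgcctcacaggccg
Uqcrh (hinge protein of complex III, chr4:116075071-116075130, minus strand): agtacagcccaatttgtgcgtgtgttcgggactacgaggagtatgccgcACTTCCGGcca
Atp5h (subunit d of the ATP synthase, chr11:115419924-115419983, minus strand): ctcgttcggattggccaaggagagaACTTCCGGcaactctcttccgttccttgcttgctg

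The estrogen-related receptor letters of Timm8b and Ndufb4 begin 96 and 57 bases before the start, and the ETS letters of Mrpl51, Uqcrh and Atp5h 90, 11 and 39 bases before it, on the opposite strand in Uqcrh and Atp5h. Their differences were -0.88 (Timm8b, adjusted p = 0.0208), -1.06 (Ndufb4, adjusted p = 0.0243), -1.0 (Mrpl51, adjusted p = 0.0295), -1.17 (Uqcrh, adjusted p = 0.0304) and -1.02 (Atp5h, adjusted p = 0.0357). Timm8b was at 44.4, 40.4 and 51.8 CPM in WT at 30°C, 108, 96.8 and 116 CPM in WT at 8°C, 44.7, 49.4 and 52.5 CPM in HY at 30°C and 64.2, 59.7 and 63 CPM in HY at 8°C. A match of letters is not a bound site, and binding was not measured in these libraries.

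Negative differences were also called for genes of fuel oxidation, in 48.1% of the TCA cycle list and 26.9% of the fatty acid oxidation list. The share over all genes was 2.07%. In the TCA cycle and pyruvate dehydrogenase list, which feeds NADH to complex I, 13 of 27 genes were called negative (median difference -1.18, WT response 1.76, HY response 0.56). Suclg1, the alpha subunit of succinyl-CoA ligase, rose from 84.3, 81.3 and 114 CPM to 658, 676 and 605 CPM in WT. In HY Suclg1 was at 90.9, 111 and 136 CPM at 30°C and 195, 223 and 201 CPM at 8°C, with a difference of -1.92 ± 0.24 (adjusted p = 0.00787). Mpc2 and Mpc1, which form the mitochondrial pyruvate carrier, had differences of -1.91 (adjusted p = 0.0113) and -1.76 (adjusted p = 0.0295). In mitochondrial fatty acid oxidation 7 of 26 were called (median -1.01). Acaa2, the last enzyme of the beta-oxidation spiral, was at 119, 110 and 172 CPM and then 1110, 1120 and 1050 CPM in WT, and at 135, 137 and 222 CPM and then 269, 283 and 251 CPM in HY, a difference of -2.33 ± 0.30 (adjusted p = 0.00787). Acsl5, which activates long-chain fatty acids, had the lowest adjusted p of the genes named in these lists, with 93.2 to 98.4 CPM at 30°C and 398 to 479 CPM at 8°C in WT, and 79.7 to 89.5 and 101 to 138 CPM in HY (difference -1.71 ± 0.18, adjusted p = 0.00471). Slc25a20, the acylcarnitine carrier, rose in both genotypes and was not called (difference -1.13 ± 0.34, adjusted p = 0.12).

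Lists of neighbouring pathways held fewer calls, and over all genes 2.07% were called negative. Peroxisomal lipid oxidation had 2 of 25 genes called negative (median difference -0.30), among them Abcd3, a peroxisomal fatty acid transporter (-1.05, adjusted p = 0.0364). Branched-chain amino acid breakdown had 1 of 22, Mcee (-1.39, adjusted p = 0.0113), with a median of -0.24. Without HY TN replicate 3 the medians of these lists were -0.04 and 0.02. Ketone body genes had 1 of 8, and the SLC25 carriers 0 of 40 called negative and 1 called positive. Over 18 lists, mitochondrial and fuel genes numbered 480 tested, of which 121 were called negative and 1 positive, and these 121 made up 35.4% of all genes called negative.

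**Figure D5:**
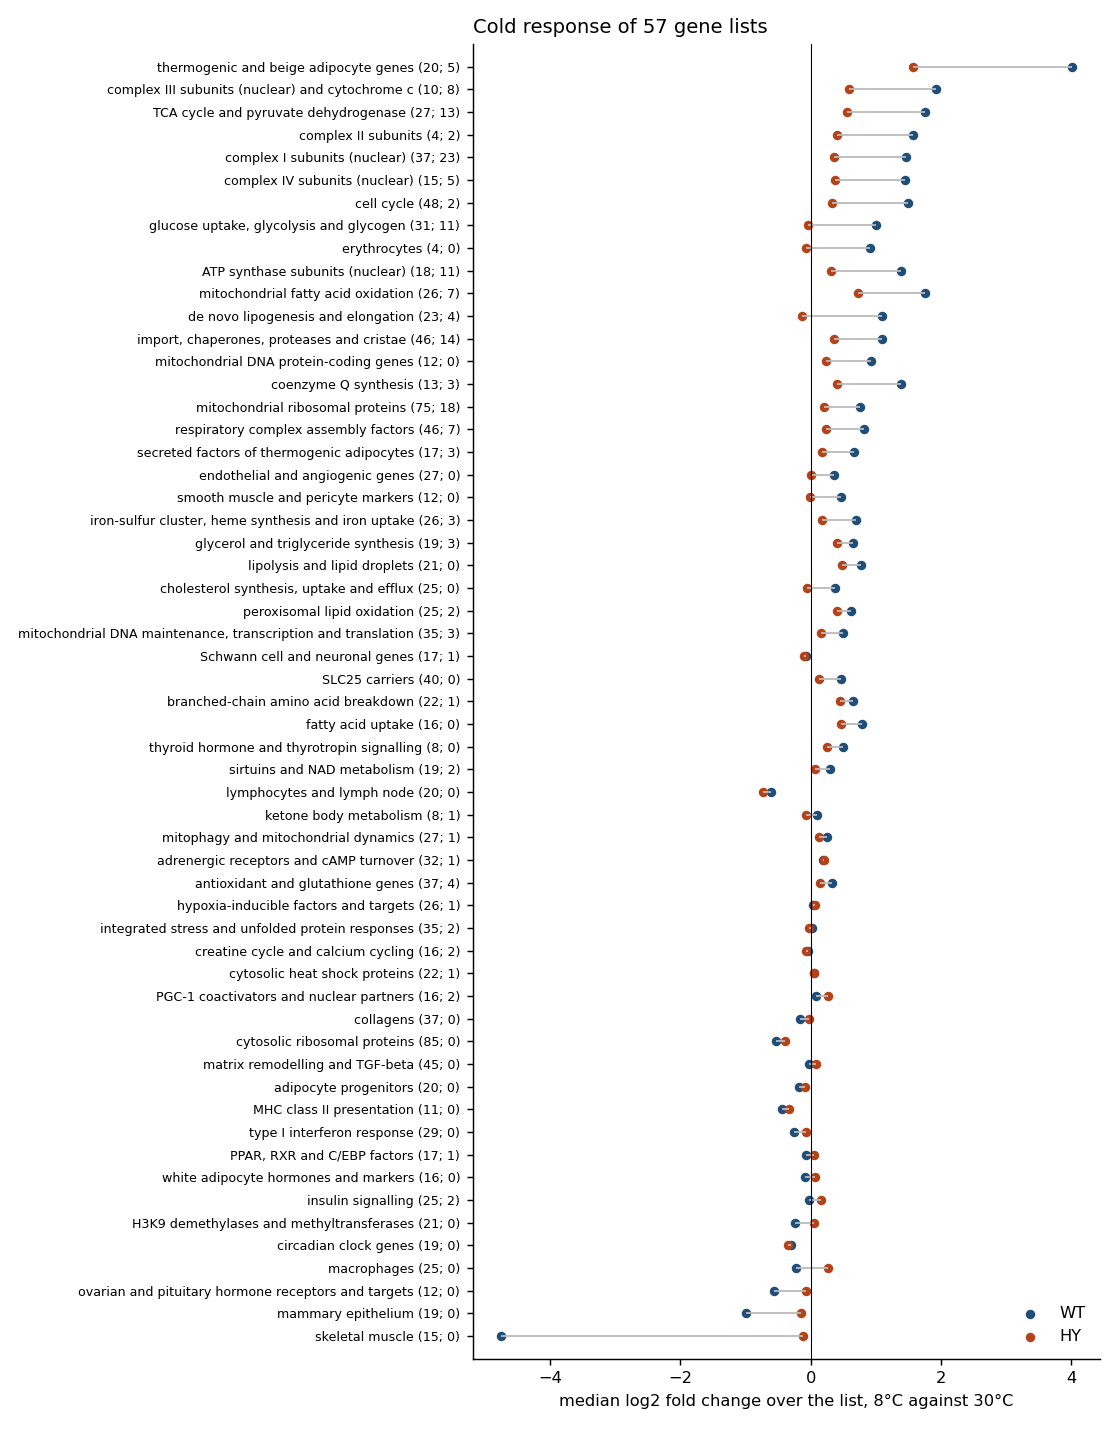
Median cold response (log2 fold change, 8°C against 30°C) of 57 gene lists in WT (blue) and HY (orange), ordered by the median difference. Beside each name stand the number of genes tested and the number called with a negative difference. Mitochondrial, thermogenic, glycolytic and cell cycle lists head the order, and the muscle list at its foot rests on WT TN replicate 2.

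Thermogenic and beige adipocyte genes had the lowest median difference of the 57 lists, -2.17, with 19 of 20 negative and 5 called (all genes, 2.07% called negative). Their median response was 4.01 in WT, where 15 were called upwards (all genes, 10.3%), and 1.57 in HY, where 5 were (all genes, 0.181%). In the best known genes of the list the difference did not pass the test. Ucp1 was at 4.58, 0.433 and 1.06 CPM in WT at 30°C and at 5050, 5350 and 6050 CPM at 8°C. In HY Ucp1 was at 0.116, 1.96 and 1.61 CPM at 30°C and at 611, 904 and 212 CPM at 8°C. The cold levels of Ucp1 did not overlap and HY was lower (-3.25 on the log2 scale, adjusted p = 0.0253), but the 30°C levels ranged from 0.116 to 4.58 CPM, and the difference was -2.55 ± 1.14 (adjusted p = 0.321). Ucp1 rose by 11.41 in WT and 8.87 in HY on the log2 scale, both past the test. Fabp3, a fatty acid binding protein of heart and brown fat, rose by 10.38 in WT and 9.02 in HY on the log2 scale, with a difference of -1.36 ± 1.20 (adjusted p = 0.639), although it was at 948, 724 and 1190 CPM in WT and at 92.9, 163 and 29.2 CPM in HY at 8°C. Elovl3, an elongase of very long fatty acids, had a difference of -4.78 ± 1.15 (adjusted p = 0.0553), Cidea, a lipid droplet protein, of -2.72 ± 0.79 (adjusted p = 0.109), and Dio2, which activates thyroid hormone, of -2.54 ± 1.18 (adjusted p = 0.34). The difference of Dio2 was -0.16 without HY TN replicate 3, which held 8.11 CPM against 0.31 and 0.757 CPM in the other HY libraries at 30°C, and that of Elovl3 was -2.62 without HY TN replicate 2.

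The 5 genes of the list that were called are Cox7a1, Letmd1, Otop1, Gk and Kcnk3, a potassium channel named after its values were seen (-2.38, adjusted p = 0.0312). Cox7a1, the heart-type isoform of a complex IV subunit, was at 4.08, 7.61 and 8.03 CPM and then at 464, 493 and 468 CPM in WT. In HY it was at 4.69, 6.96 and 13.3 CPM and then at 47.5, 59.5 and 22.8 CPM, so it rose in both genotypes (6.17 and 2.39 on the log2 scale), with a difference of -3.78 ± 0.57 (adjusted p = 0.0113). Letmd1, a mitochondrial protein of brown fat, had a difference of -2.21 ± 0.27 (adjusted p = 0.00787) and S100b, a calcium-binding protein counted among the factors that thermogenic fat secretes, of -3.28 ± 0.38 (adjusted p = 0.00691). S100b also stands in the list of Schwann cell and neuronal genes, and which cells gave its reads was not tested. S100b was at 1.77, 3.07 and 2.39 CPM in WT at 30°C, 29.4, 29.6 and 35.2 CPM in WT at 8°C, 3.95, 2.27 and 5.3 CPM in HY at 30°C and 5.18, 5.31 and 4.71 CPM in HY at 8°C. Gk, glycerol kinase, which recycles glycerol into triglyceride, rose in both genotypes, from 3.88 to 5.35 CPM up to 114 to 176 CPM in WT and from 5.15 to 7.07 up to 20.5 to 47.3 CPM in HY (difference -2.41 ± 0.39, adjusted p = 0.0133). Cpt1b, the muscle and brown fat isoform that admits fatty acids to mitochondria, had at most 3 counts in each WT library at 30°C and 65, 60 and 74 counts at 8°C, against 2, 4 and 0 and then 16, 14 and 1 counts in HY, and it was not called (adjusted p = 0.349). Plin5, which coats lipid droplets in oxidative tissue, missed the threshold (-2.12 ± 0.50, adjusted p = 0.0503).

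Among the regulators, Ppargc1a, the cold-inducible PGC-1 alpha, was called negative. It was at 3.44, 5.12 and 3.35 CPM in WT at 30°C and at 17.6, 35.9 and 25.7 CPM at 8°C, and in HY at 4.61, 7.23 and 10.2 CPM and then at 8.48, 14.6 and 8.44 CPM, with overlapping HY groups (difference -2.19 ± 0.48, adjusted p = 0.039). The DNA-binding partner Gabpa was called with a small difference, from 24.1 to 24.5 CPM up to 49.3 to 54.8 CPM in WT and from 23.4 to 28.5 up to 29.6 to 38.8 CPM in HY (-0.71 ± 0.16, adjusted p = 0.0459). Both calls were close to the threshold. That of Ppargc1a was lost in 12 of 21 alternatives, with adjusted p up to 0.116 (without HY CE replicate 1), and that of Gabpa in 14 of 21, up to 0.211 (library totals alone). Ppargc1b (-1.11 ± 0.37, adjusted p = 0.172) and Esrra, which encodes ERR alpha (-0.91 ± 0.30, adjusted p = 0.159), were not called, and the 16 genes of the PGC-1 list had a median difference of 0.09. Cebpb, a transcription factor of adipocyte differentiation, was the 1 call among 17 PPAR, RXR and C/EBP factors (difference -1.96 ± 0.40, adjusted p = 0.031). Sirt3, a mitochondrial deacetylase, was at 14.7 to 19.4 CPM and 49.3 to 55.6 CPM in WT and at 17.7 to 22.2 and 19 to 21.6 CPM in HY (-1.54 ± 0.18, adjusted p = 0.00691). Gnas, which encodes the stimulatory G protein alpha subunit between the beta-adrenergic receptor and adenylyl cyclase, had a difference of -1.39 ± 0.24 (adjusted p = 0.0146). It was the only call among 32 genes of adrenergic receptors and cAMP turnover (median -0.10), 3.12% of them. Over all genes 2.07% were called negative.

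Glucose uptake, glycolysis and glycogen genes had 11 of 31 called negative (all genes, 2.07%), with a median difference of -1.10. The median response was 1.00 in WT and -0.04 in HY. The median genotype difference of the list was 0.39 at 30°C and -0.40 at 8°C. In HY TN replicate 2 the list averaged 7.38 log2 CPM, against 6.72 and 7.21 in the other HY libraries at 30°C. Without that library the median difference was -0.75. Gapdh was at 823, 848 and 1130 CPM in WT at 30°C and at 3500, 3490 and 3590 CPM at 8°C. In HY Gapdh was at 1180, 2400 and 1570 CPM at 30°C and at 1640, 1710 and 1660 CPM at 8°C, so that the 30°C range enclosed the cold libraries (difference -1.96 ± 0.33, adjusted p = 0.0146). Eno1, the ubiquitous enolase, had a difference of -2.27 ± 0.38 (adjusted p = 0.0135), Pfkl, the liver isoform of phosphofructokinase, of -2.08 ± 0.37 (adjusted p = 0.0199), Pkm, pyruvate kinase, of -1.79 ± 0.33 (adjusted p = 0.0218), and Ldhb, lactate dehydrogenase B, of -2.04 ± 0.34 (adjusted p = 0.0135). The glucose carrier Slc2a4 (GLUT4) was not called (-1.17 ± 0.34, adjusted p = 0.109).

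For de novo lipogenesis the median genotype difference was larger at 30°C than at 8°C. Its median difference was -0.85 with 4 of 23 genes called negative (all genes, 2.07%), but its median genotype difference was 0.94 at 30°C and -0.09 at 8°C. Me1, malic enzyme, which supplies NADPH for fatty acid synthesis, was at 586, 794 and 863 CPM in WT at 30°C against 2150, 5970 and 2920 CPM in HY, and at 3800, 3620 and 3040 CPM in WT at 8°C against 3530, 3470 and 4600 CPM in HY (difference -2.15 ± 0.46, adjusted p = 0.0372). Acss2, which makes acetyl-CoA from acetate, was at 210, 230 and 235 CPM in WT and 623, 1700 and 604 CPM in HY at 30°C, and at 583 to 884 CPM in WT and 649 to 719 CPM in HY at 8°C (-2.20 ± 0.48, adjusted p = 0.0375). Acaca, acetyl-CoA carboxylase (-1.83 ± 0.37, adjusted p = 0.0302), and Elovl6, a fatty acid elongase (-2.97 ± 0.55, adjusted p = 0.0226), were also called, whereas Fasn (-1.32 ± 0.38, adjusted p = 0.106), Acly (-2.36 ± 0.65, adjusted p = 0.0954) and Scd1 (-0.85 ± 0.49, adjusted p = 0.441) were not. For Me1, Acss2, Acaca and Elovl6 all 3 HY libraries were above all 3 WT libraries at 30°C. HY TN replicate 2 had the highest value of each, and without it the differences were -1.61, -1.53, -1.47 and -2.42 with adjusted p of 0.0373, 0.0204, 0.0363 and 0.0309. All 4 calls were lost without HY CE replicate 1 (adjusted p = 0.11, 0.107, 0.0915 and 0.078) and without WT TN replicate 2 (0.0848, 0.0886, 0.0714 and 0.0606).

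Cell cycle genes had 46 of 48 differences negative and a median of -1.13. In WT 38 of the 48 passed the test upwards in cold (all genes, 10.3%). In HY 0 did (all genes, 0.181%), although the median response in HY was 0.33. The 2 differences called were those of Gmnn, a regulator of replication licensing (-1.74 ± 0.35, adjusted p = 0.0309), and Rrm2, a subunit of ribonucleotide reductase (-1.90 ± 0.42, adjusted p = 0.042). The call of Gmnn was lost in 11 of 21 alternatives, with adjusted p up to 0.0957, and that of Rrm2 in 15 of 21, up to 0.137. Mki67, the Ki-67 proliferation marker, was at 8.16, 5.7 and 5.21 CPM and then at 46.7, 19.6 and 31.8 CPM in WT, and at 6.9, 3.51 and 4.78 CPM and then 5.5, 13.3 and 5.36 CPM in HY (difference -1.69 ± 0.57, adjusted p = 0.177). The cold libraries of Mki67 spread widely in both genotypes. Other calls by list were Sod2 and Txnrd2 among 4 of 37 antioxidant genes (-1.50, adjusted p = 0.0146, and -1.35, adjusted p = 0.0113), Egln1, an oxygen-sensing prolyl hydroxylase, as 1 of 26 hypoxia genes (-1.19, adjusted p = 0.0113), and Deptor and Mtor, an inhibitor and the kinase of the mTOR complexes, as 2 of 25 insulin signalling genes (-1.89, adjusted p = 0.0138, and -0.95, adjusted p = 0.0312). The median differences of these last 3 lists were -0.04, 0.00 and 0.22. The shares called negative were 10.8, 3.85 and 8.0% in these lists and 4.17% in the cell cycle list, against 2.07% over all genes.

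The 12 most negative fitted differences among named genes with at least 10 counts on average were those of Fgf21, Kng2, Acot12, Atp4b, Myl3, Adprhl1, Cox7a1, Otop1, Ncan, Acot11, S100b and Ttc25. Fgf21, a hormone of the liver that cold-exposed brown fat also secretes, had 5, 1 and 5 counts in WT at 30°C, 14, 116 and 85 counts in WT at 8°C, 6, 45 and 4 counts in HY at 30°C and 2, 3 and 3 counts in HY at 8°C (adjusted p = 0.0345). Its fold changes are not given because a group had no more than 3 counts in any library, and HY TN replicate 2 held 45 of the HY counts at 30°C. Without that library Fgf21 was no longer called (adjusted p = 0.117). Acot12, an acetyl-CoA hydrolase, had 0 to 3 counts in all libraries but those of WT at 8°C, which had 30, 33 and 45 (adjusted p = 0.0421).

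Kng2, a kininogen, was at 0.317 to 0.372 CPM in WT at 30°C and at 43.3, 37.3 and 34.6 CPM at 8°C, and in HY at 0.312 to 1.38 CPM and then at 2.33, 5.44 and 1.46 CPM (difference -4.97 ± 0.71, adjusted p = 0.0113). Otop1, a proton channel, was at 104 to 111 CPM in the WT cold libraries and at 18 to 31.9 CPM in those of HY (-3.68 ± 0.63, adjusted p = 0.0146). Acot11, an acyl-CoA thioesterase induced by cold, was at 208 to 255 CPM and 14 to 47.4 CPM in the same libraries (-3.35 ± 0.72, adjusted p = 0.0371), and Adprhl1 at 5.71 to 7.73 CPM and 0.325 to 1.19 CPM (-3.95 ± 0.77, adjusted p = 0.0273). Ncan, a proteoglycan known from brain, was at 0.453 to 0.758 CPM in WT and 1.74 to 8.16 CPM in HY at 30°C, and at 3.66 to 4.83 and 1.81 to 2.52 CPM at 8°C (-3.67 ± 0.74, adjusted p = 0.0304). Atp4b, the beta subunit of the gastric proton pump (-4.39 ± 0.89, adjusted p = 0.0304), and Myl3, a myosin light chain of heart and slow muscle (-4.37 ± 0.96, adjusted p = 0.039), stayed below 5 CPM in every library. Ttc25 had a difference of -3.24 ± 0.75 (adjusted p = 0.0487). HY TN replicate 2 held the highest HY value at 30°C of Atp4b, Myl3, Adprhl1, Acot11, Ncan and Ttc25. Without that library the calls of Acot12, Atp4b, Myl3, Adprhl1, Acot11 and Ttc25 were lost, as was that of Fgf21 (adjusted p = 0.0774, 0.0627, 0.0903, 0.079, 0.0669 and 0.0586 for the first 6). Those of Kng2, Cox7a1, Otop1, Ncan and S100b were kept.

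In 3 genes the negative difference went with a fall in HY that passed the test and no call in WT. Cryab, a small heat shock protein, was at 53.2, 67 and 60.9 CPM in WT at 30°C and 59.1, 55.4 and 73.9 CPM at 8°C, and in HY at 127, 186 and 90.8 CPM and then at 54.6, 44.5 and 54 CPM (difference -1.46 ± 0.31, adjusted p = 0.0356). Tbx2, a T-box transcription factor, was at 13.4 to 14.3 and 12 to 16 CPM in WT and at 18.6 to 20.5 and then 8.68 to 10.3 CPM in HY, where the groups did not overlap (-1.10 ± 0.19, adjusted p = 0.0146). Ndufa4l2, a hypoxia-inducible relative of a complex IV subunit, was at 14.5 to 18.5 and then 7.71 to 9.17 CPM in HY (-1.10 ± 0.23, adjusted p = 0.0312). Tbx2 and Ndufa4l2 were named after their values were seen.

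The 28 genes with a positive difference included 1 member of a list, Slc25a29 among the SLC25 carriers. This carrier of basic amino acids was at 9.38, 9.99 and 10.6 CPM in WT at 30°C and at 3.72, 4.22 and 5.26 CPM at 8°C, and in HY at 8.41, 7.06 and 7.9 CPM and then at 9.32, 6.38 and 10.4 CPM, with overlapping HY groups (difference 1.34 ± 0.27, adjusted p = 0.0312). Cbs, cystathionine beta-synthase of the transsulfuration pathway, was at 12.6 to 20.5 and then 3.86 to 7.44 CPM in WT and at 9.06 to 13.1 and then 10 to 19.4 CPM in HY (1.87 ± 0.42, adjusted p = 0.0432). Flvcr2, a membrane transporter, was at 3.45 to 5.12 and 1.63 to 2.19 CPM in WT and at 1.98 to 2.2 and 2.65 to 4.14 CPM in HY (1.80 ± 0.33, adjusted p = 0.0218), so the 8°C libraries were below the 30°C libraries in WT and above them in HY, without overlap. Folr1, a folate receptor, had the same crossed pattern, with 5.99 to 6.17 and 3.02 to 4.38 CPM in WT and 1.46 to 2.69 and 3.09 to 4.21 CPM in HY (1.60 ± 0.33, adjusted p = 0.0327).

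Mgat5, a glycosyltransferase of N-glycan branching, was at 34.6, 44.7 and 46.1 CPM and then at 24.3, 24 and 23.9 CPM in WT, and at 16.4 to 21.3 and 20.5 to 27.6 CPM in HY, so HY was below WT at 30°C (1.10 ± 0.21, adjusted p = 0.0255). Rab11fip4 (1.19 ± 0.26, adjusted p = 0.0402) and Shc2 (1.04 ± 0.24, adjusted p = 0.0435) had genotype differences of -1.0 and -1.11 (log2, HY minus WT) at 30°C. Cachd1, a calcium channel related protein, differed at 8°C instead, with 11 to 14.6 CPM in WT and 32.9 to 43.4 CPM in HY (1.39 ± 0.29, adjusted p = 0.0316). Cdhr1 (3.0 ± 0.64, adjusted p = 0.0357), Cmip (0.96 ± 0.22, adjusted p = 0.0467) and Pitpnm3 (0.96 ± 0.20, adjusted p = 0.0312) were also called. The pseudogene Rpl31-ps13 had 37, 41 and 3 counts in HY at 8°C and 1 to 16 in every other library. Its reads may be shared with near-identical copies, so its values are uncertain. Without WT TN replicate 2, 3 positive differences were called, 2 of them among the 28, and leaving out WT TN replicate 1 or any 8°C library left between 2 and 5. The skeletal muscle list averaged 6.69 log2 CPM in that library, and its part in these calls was not tested.

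Some of the 30 genes called upwards in HY had fitted responses of similar size in WT. Pdpr, a regulatory subunit of pyruvate dehydrogenase phosphatase, responded by 1.56 in WT and 1.59 in HY (difference 0.03 ± 0.34), Noct, a circadian NADP(H) phosphatase, by 1.51 and 1.38 (-0.13 ± 0.33), and Cyp2b10, a cytochrome P450, by 4.82 and 5.39 (0.57 ± 1.17). These genes were chosen after their values were seen, and the errors leave room for differences of either sign.

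In most lists of other cell types and of tissue structure no gene was called by edgeR. Over all genes 2.07% were called negative and 0.169% positive. For lists of this size 0 calls lie near those shares. The Schwann cell and neuronal list had 1 call in 17, S100b (median difference -0.27). Among endothelial genes 0 of 27 were called in either direction (median difference -0.50), as among smooth muscle and pericyte markers (0 of 12, -0.42), collagens (0 of 37, 0.11), adipocyte progenitors (0 of 20, 0.14), macrophages (0 of 25, 0.48), lymphocytes (0 of 20, -0.14), type I interferon genes (0 of 29, 0.17) and cytosolic ribosomal proteins (0 of 85, 0.12). White adipocyte hormones and markers had 0 of 16 called (median 0.21). Several of these medians changed sign when 1 library was left out, to -0.17 for collagens (WT TN replicate 2), -0.06 for progenitors (HY TN replicate 3), 0.32 for lymphocytes (HY TN replicate 1), -0.11 for interferon genes (HY CE replicate 1), -0.01 for ribosomal proteins (HY TN replicate 3) and -0.03 for white adipocyte markers (WT CE replicate 1). The lists with no call by edgeR numbered 22 and counted 499 members tested, of which 64 had an unadjusted p under 0.05 (all genes tested, 15.0%), 13 were called by DESeq2 and 9 by limma-voom, 5 and 6 of these in lipolysis and lipid droplets. The 64 included 10 of the 27 endothelial genes, 8 of the 21 lipolysis and lipid droplet genes and 0 of the 25 macrophage genes. Adipoq, adiponectin, had a difference of 0.82 ± 0.46 (adjusted p = 0.431) and Lep, leptin, of 1.08 ± 0.65 (adjusted p = 0.465). Greb1, an estrogen receptor target, was at 18.4, 6.67 and 16.2 CPM and then 3.86 to 7.24 CPM in WT and at 0.104 to 4.06 and 0 to 0.75 CPM in HY, with no difference called (-1.24 ± 1.49, adjusted p = 0.745). Without HY TN replicate 2 the difference of Greb1 was 0.79, and over all alternatives it lay between -6.65 and 0.79. Mammary epithelium genes, of which 0 of 19 were called, had a median difference of 0.75 and 0.40 without HY TN replicate 3. The skeletal muscle list had a median of 4.30 that became -0.38 without WT TN replicate 2, and the 4 erythrocyte genes a median of -1.04 that became -0.21 without HY TN replicate 3.

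The genes called negative had shorter transcripts than the genes tested. The longest coding transcript (GENCODE M1) had a median of 1813 bases for 314 of the 342 genes, against 2957 bases for 13922 of all 16540 and 4093 bases for 27 of the 28 called positive. Among the 121 called genes of the mitochondrial and fuel lists the median was 1243 bases, and among the other 221 it was 2294. With the genes divided into 5 classes of like size by length, in the shortest class (78 to 1666 bases) 149 were called negative and 4 positive, and the median difference was -0.09. In the longest class (4808 to 26901 bases) 23 were called negative and 10 positive, and the median was 0.12. The median difference of the complex I list was -1.15. The part of transcript length in the calls was not tested. The genes called negative also had more counts than the rest, with a median of 833.9 per library against 289.2 over all genes.

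Of the 342 negative calls, 59 were made in each of 12 fits that left out 1 library, among them Ndufs8, Cyc1, Cycs, Cox5a, Cox7a1, Suclg1, Acaa2, Acsl5, Sirt3, S100b, Letmd1 and Kng2. Of the 28 positive calls 1 was made in each, that of a gene without a symbol. Every positive call named above was lost in some of these fits. All 342 and all 28 kept their sign in each of the 12 fits, which share most libraries with the fit that chose the genes. The number of negative calls ranged from 64 (without HY CE replicate 1) to 606 (without HY TN replicate 1), and that of positive calls from 2 (without WT CE replicate 2 or 3) to 58 (without WT TN replicate 3). The number of negative calls moved by over 1.5 times when any library other than WT TN replicate 3 and HY TN replicate 3 was left out.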

How the data were processed

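RNA from scWAT of 12 mice was sequenced as paired 50-base reads, trimmed with fastp and aligned to mm10 with STAR, per the study's methods. The authors deposited a table of raw read pair counts per gene for each library. The counter is not given in the sources used here. Of the columns, which hold counts by strand setting, the column 4 counts were used. The column that counts both strands together was an alternative. Entries that name no gene (unmapped, multimapping, no feature or ambiguous) took 55.8 to 63.5% of the column 4 total of each library and were left out. Column 4 is 1 strand setting, so pairs counted on genes only by the other setting fall in this share. It is not the share of pairs outside genes. Genes were kept by edgeR's filterByExpr, scaled by TMM and tested with quasi-likelihood F tests (edgeR 4.0.16, R 4.3.3), 1 mean per group and 8 residual degrees of freedom. Standard errors (SE) are those of the fitted log2 values. Adjusted p are Benjamini-Hochberg values over 16540 genes. The interaction was called at adjusted p under 0.05, the cold and genotype contrasts also at 1.5-fold. The p-values rest on the spread between libraries within groups, pooled over the 4 groups and moderated across genes. That spread was unequal, with a chi-square per degree of freedom between replicate pairs of 84.8 to 176 in HY TN and 10.8 to 18.1 in WT CE. Gene symbols were matched to 32589 of 55401 identifiers. DESeq2 1.42.0 and limma 3.58.1 (voom) were alternatives.

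The gene lists and genes were chosen with earlier results of these data known. Named were the 12 lowest and the 12 highest differences among called genes with a symbol and a mean of 10 counts, the 2 genes per list with the lowest p in each direction (where none was called, the gene with the lowest p), and regulators and markers of the beige state fixed by name. Letm1, Acsf2, Pank1, Gapdh, Pkm, Pfkl, Me1, Fasn, Acly, Scd1, Slc2a4, Mpc1, Slc25a20, Mki67, Kcnk3, Tbx2, Ndufa4l2, Pdpr, Noct, Cyp2b10 and the genes with printed promoter stretches were chosen after their values were seen.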

Additional observations from a re-analysis of the deposited data

Results flagged for a closer look

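The cold response differed between WT and HY in 370 genes by the test of the difference itself, the interaction of genotype and temperature in edgeR. This is a difference of 1 effect between the 2 genotypes, 342 genes having a negative and 28 a positive difference.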

How the results depend on the processing

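All 342 negative and 28 positive differences kept their sign in each fit that left out 1 library, with library totals, with DESeq2 and with limma-voom. With both strands together this held for 341 of the 342 and all 28. These fits share most or all libraries with the fit that chose the genes, so a kept sign is a description only. The counts moved. Negative and positive calls numbered 712 and 95 with DESeq2, 624 and 91 with limma-voom, 186 and 43 with library totals alone, and 595 and 81 at adjusted p under 0.10. Leaving out 1 library at a time gave 64 to 606 negative and 2 to 58 positive calls. Negative calls were more than 1.5 times fewer without WT TN replicate 1 (81), WT TN replicate 2 (117), HY TN replicate 2 (177), WT CE replicates 1 (116), 2 (102) and 3 (81), and HY CE replicates 1 (64), 2 (139) and 3 (76), and more without HY TN replicate 1 (606). Without WT TN replicate 2 and HY TN replicate 3 together, an alternative added after seeing the data, 119 and 29 were called, 109 and 4 of them among the 342 and 28. Calls in WT with library totals were 1057 upwards and 4092 downwards, and leaving out 1 library gave 1356 to 1869 and 517 to 1515. Calls in HY were 7 to 461 upwards and 0 to 201 downwards with 1 library left out, 539 and 304 with both doubted libraries left out, and 18 downwards with library totals. The cause of these moves was not tested.

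With the replicate number as a block, 469 negative and 57 positive differences were called, 332 and 25 of them among the 342 and 28. The labels state no shared litter or day for a number. The deviations of same-numbered libraries correlated at -0.0695 to 0.346, with 11 of 18 pairs over 0.1, and 7 of 12 libraries correlated best with one of their own number. Over 36 pairs of a library and another group, the library correlated best with its own number in 23. All 3 same-numbered pairs of HY TN and HY CE were over 0.1 (0.112, 0.199 and 0.303). The number was not taken as a pairing because the labels name none, and whether it marks one was not tested. Of 3564 pairs of a named gene and an alternative, 2643 kept direction and side of the threshold, 830 lost and 62 gained the call, and 29 changed sign in genes that were not called. Cyp2b10 was at -0.23 and Noct at 0.11 with limma-voom, and Noct was at 0.12 and Plin1 at 0.13 with library totals. With both doubted libraries left out, Kdm3a was at -0.03, Plin1 0.29, Fabp4 0.42, Krt14 -1.42, Cyp2b10 -0.70 and Noct 0.07. With 1 library left out, the differences ranged from -6.65 to 0.79 for Greb1, -0.31 to 0.23 for Plin1, -0.57 to 0.28 for Fabp4, -2.55 to 4.74 for the muscle gene Ckm, -0.87 to 2.81 for the epithelial gene Krt14, -0.46 to 1.30 for Cyp2b10, -0.11 to 0.18 for Pdpr and -0.35 to 0.08 for Noct. Of 115 named calls, 27 were kept under every alternative. Of 57 list medians, 18 took both signs over the fits without 1 library. Of 1197 list medians under alternatives, 125 moved by more than the spread between replicates. With 3 libraries a group, genes not called may still differ.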

Other observations

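Further lists are given here, beside 2.07% called negative and 0.169% called positive over all genes. Glycerol and triglyceride synthesis had 3 of 19 genes called with a negative difference, 15.8% of them (median -0.35). One of them was Gpd2, the mitochondrial glycerol-3-phosphate dehydrogenase, at 63.6 to 82.3 and then 346 to 375 CPM in WT and at 80.9 to 141 and then 117 to 181 CPM in HY (difference -1.96 ± 0.29, adjusted p = 0.0113). Lipolysis and lipid droplet genes had 0 of 21 called (median -0.33), fatty acid uptake 0 of 16 (-0.22) and cholesterol genes 0 of 25 (-0.30). Stress response genes had 2 of 35 called, Fgf21 and Atf5, a transcription factor of the mitochondrial stress response (-1.80 ± 0.42, adjusted p = 0.0461), with a median of 0.01. The 21 tested enzymes that add or remove methyl groups at lysine 9 of histone H3 had 0 calls and a median of 0.25, and 19 of the 21 differences were positive. The lowest p among them was that of Ehmt2, a methyltransferase, at 179 to 204 and then 126 to 134 CPM in WT and at 152 to 157 and then 140 to 150 CPM in HY (0.43 ± 0.13, adjusted p = 0.136).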
